A study of Mus musculus with 9 samples.

Results

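The nuclear genes for the subunits of the oxidative phosphorylation system were examined in mouse liver RNA, complex by complex. Members were the rows of the gene table whose symbol begins with Ndufa, Ndufb, Ndufc, Ndufs or Ndufv and a digit, is Sdha, Sdhb, Sdhc or Sdhd, or begins with Uqcr, with Cox and a digit from 4 to 8, or with Atp5. The rule found 85 of the 21873 rows, with 37 for complex I, 4 for complex II, 8 for complex III, 18 for complex IV and 18 for complex V. The rule uses gene symbols alone and no measured value, and the set was taken up with earlier results of these data known.

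Livers came from male C57BL/6 mice in 3 groups of 3 mice. The control group received saline (NS) for 8 weeks, the TAA group received intraperitoneal thioacetamide, a liver toxin used to produce fibrosis, for 8 weeks, and the recovery group received thioacetamide for 8 weeks and was then left without treatment for 8 weeks. Recovery mice were therefore older at collection than both other groups, no age-matched control was analysed here, and recovery and age cannot be told apart in comparisons with it. Each library is bulk liver RNA of 1 mouse, given in FPKM, fragments per kilobase of transcript relative to the fragments mapped in the library, so that levels of different genes can be set side by side per length.

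Oxidative phosphorylation takes place in the inner mitochondrial membrane. Complexes I and II pass electrons from NADH and succinate to coenzyme Q, complex III passes them on to cytochrome c, complex IV hands them to oxygen, and complexes I, III and IV pump the protons that drive ATP synthesis by complex V. Hepatocytes are rich in mitochondria. Complexes I, III, IV and V are built from proteins of both the nuclear and the mitochondrial genome, whereas complex II is wholly nuclear-encoded. Small accessory subunits surround the catalytic core and serve its assembly and stability.

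The libraries were scaled to each other by the median of ratios over the 14005 genes above 0 in all 9 libraries, and values are called scaled FPKM below. The scaling factor, by which a library's FPKM is divided, was 0.821 to 0.873 in control mice, 1.28 to 1.37 in TAA mice and 0.888 to 0.901 in recovery mice. Between 16314 and 16562 genes were above 0 in TAA mice, beside 14923 to 15160 in control and 15160 to 15505 in recovery mice. Each comparison was therefore repeated on FPKM as deposited, after quantile normalization, and with median-of-ratios scaling over abundant genes, those that averaged 10 FPKM or more. The log2 fold changes are of scaled FPKM plus 0.1 and come from limma with Benjamini-Hochberg adjustment over all 14094 genes tested. A gene was called at an adjusted p under 0.05. The labels give replicate numbers and nothing more on the 3 libraries of a group, and the study describes them as 9 mice. The p-values set each difference against the spread between mice of a group, which limma estimates in part from all genes tested.

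Of the 85 rows, 80 were tested, because 5 averaged under 0.1 FPKM. Cox7b2 and Cox8c, known as testis isoforms, and the additional identifier listed under the symbol Atp5o were at 0 in all 9 libraries. Cox4i2 and Cox6a2, the lung and the heart and skeletal muscle isoforms of their subunits, stayed under the limit. The highest level per length in control livers was that of Atp5b, the catalytic beta subunit of complex V, with 551, 547 and 471 scaled FPKM. Atp5a1, the alpha subunit beside it, followed with 388, 364 and 336. The subunit c gene Atp5g3 had 312, 317 and 290, which did not overlap with Atp5a1, and Cox4i1, a nuclear subunit of complex IV, had 291, 223 and 218, the first of which overlapped with Atp5g3. At the other end of the tested complex I members stood Ndufa4l2, a relative of Ndufa4, with a control mean of 2.90 ± 0.701 scaled FPKM (SD, n = 3).

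Subunit genes of every complex were lower in TAA livers than in control livers on the main scale. Of the 80 members tested, 59 were called lower and 1 higher, with 26.3% of all genes called lower and 28.2% called higher. The members' median log2 fold change was -0.48, beside 0.02 for all genes tested, but the sign depended on the scale and the median was 0.15 on FPKM as deposited, 0.01 after quantile normalization and -0.12 with the scaling over abundant genes. Abundant genes as a class lay lower on the main scale as well. Among the 4143 abundant genes tested, 52.1% were called lower and the median was -0.36, and among the 74 members in that class 59 were called lower and the median was -0.52. A fold change of at least 2 was reached by 6 of the members called lower and by 0 called higher, with 8.02% and 17% of all genes. The 6 among 80 members are near the share of all genes. The values of all 3 TAA mice were below those of all 3 control mice in 63 of the 80 members and above them in 1, where 31% and 32.6% of all genes did not overlap in these directions.

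**Figure D1:**
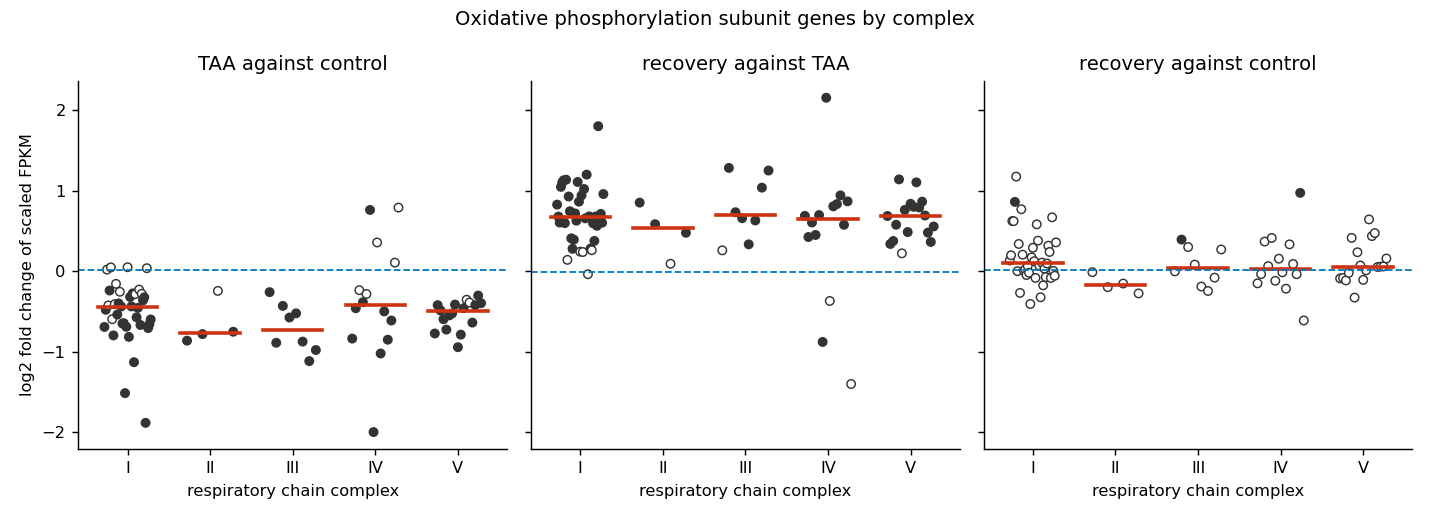
Each point is 1 subunit gene, with its log2 fold change of scaled FPKM on the y axis and its complex on the x axis. Filled points were called at an adjusted p under 0.05 (limma), red bars are the medians of a complex and the dashed line is the median of all genes tested. On this scale 59 of 80 members were lower in TAA than in control livers and 69 were higher in recovery than in TAA livers, while on FPKM as deposited the member median in TAA was above 0, and 3 were called between recovery and control livers.

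The change of scale moved the median of all genes in the TAA comparison from 0.02 to 0.63 on FPKM as deposited and to 0.36 with the scaling over abundant genes. Relative to the median of all genes, the member median was -0.50 on the main scale, -0.48 on FPKM as deposited and -0.49 with the scaling over abundant genes. After quantile normalization it was 0.05. The counts followed the scale. On FPKM as deposited 8 members were called lower and 22 higher, with 8.5% and 62.2% of all genes, after quantile normalization 10 were lower and 12 higher, with 26% and 23.9%, and with the scaling over abundant genes 26 were lower and 4 higher, with 13.6% and 45.3%.

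**Figure D2:**
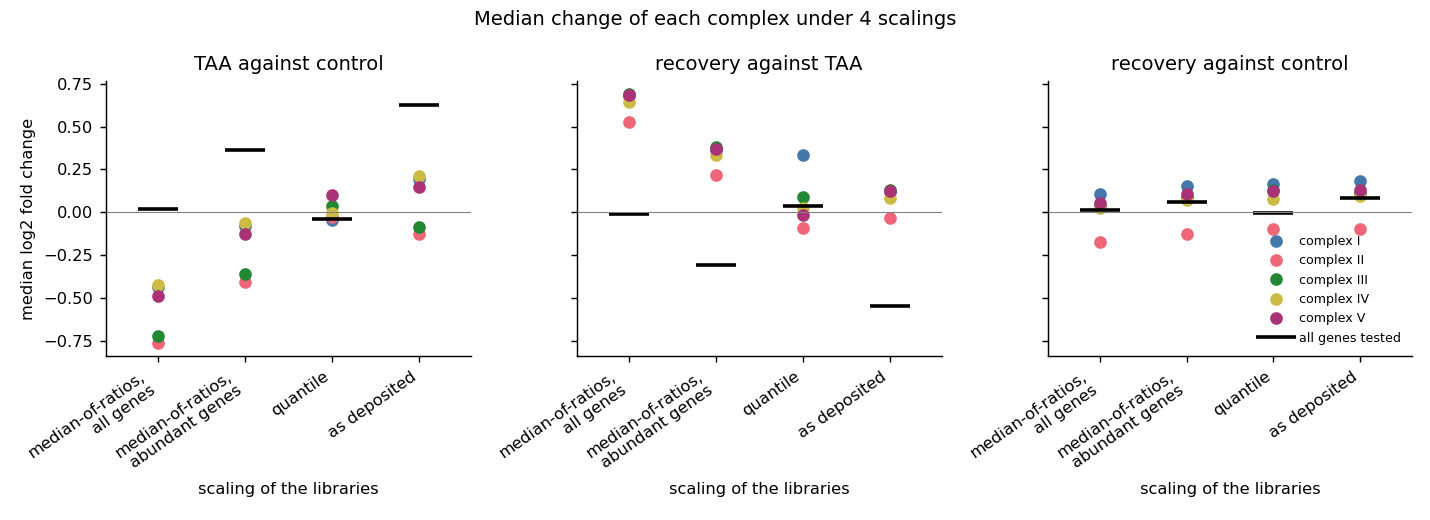
Points are the median log2 fold change of the members of each complex and black bars that of all genes tested, on the y axis, under the 4 scalings on the x axis. In the TAA comparison the complexes lay below the all-gene median under 3 scalings and close to it after quantile normalization, while the sign of the complex I, IV and V medians turned positive on FPKM as deposited.

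A share within each library, which no scaling factor alters, gave a further view. The members' FPKM summed to 1.5% to 1.65% of the FPKM of all nuclear genes in control livers, 1.82% to 1.88% in TAA livers and 1.63% to 1.82% in recovery livers. Every TAA mouse lay above every control mouse. The same held for complex I, with 0.375% to 0.398% in control and 0.452% to 0.472% in TAA mice, for complex III, with 0.200% to 0.227% and 0.236% to 0.245%, and for complex V, with 0.545% to 0.586% and 0.666% to 0.675%. The shares of complex II, with 0.0927% to 0.110% and 0.101% to 0.107%, and of complex IV, with 0.288% to 0.331% and 0.328% to 0.4%, overlapped between the groups. So the summed subunit mRNA took a larger share of the nuclear FPKM in TAA livers, while most single members lay lower relative to the typical gene, except after quantile normalization.

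Markers of several cell types differed in the TAA group, where 26.3% of all genes were called lower and 28.2% higher on the main scale. Of 8 hepatocyte markers 6 were called lower in TAA livers on the main scale (3 lower and 2 higher after quantile normalization), and their summed level was 39381 to 43707 scaled FPKM in control, 21592 to 28568 in TAA and 47064 to 50463 in recovery mice. All 6 cholangiocyte markers were called higher, with sums of 15.8 to 21.1, 304 to 450 and 28.1 to 38.8, and 7 of 8 stellate cell and fibroblast markers, with sums of 58.9 to 101, 283 to 398 and 88.1 to 124. Control and TAA sums overlapped for macrophage markers (40.6 to 83.6 and 76.2 to 85.5) and endothelial markers (35.4 to 61.4 and 38.4 to 52.2). Those of T and B cells were higher in TAA mice (2.40 to 3.50 beside 1.08 to 2.02). Those of red blood cell precursors (54.9 to 127 beside 141 to 176) and fat (0.172 to 0.246 beside 0.850 to 9.94) were lower. In bulk RNA fewer cells of a type and less RNA per cell cannot be told apart, and the part of these shifts in the subunit levels was not tested. One TAA mouse, TAA 3, also held skeletal muscle transcripts, with a summed level of 52.6 over 12 muscle markers, beside 0.161 to 0.522 in the other 8 mice. Tnnc2, Tnnt3, Myh2, Myh4 and Pvalb were at 0 in those 8 mice. Without TAA 3, 54 members were called lower in TAA livers and 1 higher.

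In complex I, 25 of 37 members were called lower in TAA livers, at a median of -0.44 on the log2 scale, and none was called higher. Ndufs7, the subunit that carries the last iron-sulfur cluster before coenzyme Q, lies on chromosome 10 (mm10, 80249121 to 80256794) and had the largest fall of the complex. Its scaled FPKM was 51.2, 64.0 and 45.2 in control, 13.4, 12.8 and 17.0 in TAA and 53.8, 50.8 and 45.6 in recovery mice. The TAA mice stood far below both other groups, which overlapped. The log2 fold change was -1.88 (SE 0.16, adjusted p = 6.86e-05) in TAA against control and 1.80 (SE 0.13, adjusted p = 3.3e-05) in recovery against TAA.

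Ndufb2, an accessory subunit of the membrane arm (chromosome 6, 39592574 to 39603382), had 35, 41.4 and 29.9 scaled FPKM in control, 12.3, 11.9 and 12.5 in TAA and 29.4, 25.6 and 24.6 in recovery mice. It fell by 1.51 on the log2 scale in TAA livers (SE 0.12, adjusted p = 6.01e-05) and rose by 1.11 in recovery against TAA (SE 0.10, adjusted p = 7.93e-05), and all 3 recovery mice still lay just below all 3 control mice (log2 fold change -0.41, adjusted p = 0.144). Its exons overlap those of Braf and Gm16272 on the opposite strand and of Gm42420 on the same strand. Ndufb9, another membrane arm subunit (chromosome 15, 58933756 to 58939488), had 176, 171 and 164 in control, 82.5, 74.6 and 76.4 in TAA and 185, 188 and 163 in recovery mice, so the TAA mice stood far below all others. It changed by -1.13 (SE 0.08, adjusted p = 3.82e-05) and then by 1.20 (SE 0.09, adjusted p = 5.37e-05), and its exons overlap those of Gm49356 on the same strand. Whether the counting of reads used the strand is not given in the sources used here, so reads of overlapping genes may be shared.

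The catalytic core of complex I did not move as 1 block. Of its 7 nuclear subunits 5 were called lower in TAA livers, with a median of -0.66, and of the 30 other members 20, with a median of -0.43. Ndufv1, which binds the NADH and flavin, had 45.6, 52.2 and 40.2 scaled FPKM in control and 28.2, 25.6 and 30.3 in TAA mice, a log2 fold change of -0.71 (SE 0.12, adjusted p = 0.00175), and 44.7, 49.3 and 43.7 in recovery mice. Ndufs1, the largest iron-sulfur subunit, went from 63.4, 55.6 and 52.0 to 43.2, 40.6 and 40.3 (log2 fold change -0.46, adjusted p = 0.00529) and stood at 48.7, 51.1 and 50.8 in recovery mice, between the other groups with no overlap. Ndufs8, an iron-sulfur subunit, had 18.9, 17.8 and 27.4 in control and 22.7, 22.9 and 19.2 in TAA mice, which overlapped, and 32.9, 34.2 and 33.1 in recovery mice, all above the TAA mice (log2 fold change 0.63, SE 0.09, adjusted p = 0.00106).

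Ndufa4, counted here by its symbol although it is known as a subunit of complex IV, had 112, 121 and 122 scaled FPKM in control, 74.7, 68.9 and 61.1 in TAA and 135, 176 and 140 in recovery mice. The 3 groups did not overlap. It fell by 0.80 in TAA livers (SE 0.10, adjusted p = 0.000402) and rose by 1.13 in recovery against TAA (SE 0.13, adjusted p = 0.000283). Ndufa4l2, its low-oxygen-induced relative, had 3.06, 3.51 and 2.13 in control, 2.47, 1.75 and 2.18 in TAA and 2.70, 2.14 and 2.21 in recovery mice, with overlap between all groups and no call.

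Complex II had 3 of its 4 members called lower in TAA livers on the main scale, at a median log2 fold change of -0.77. The median was -0.13 on FPKM as deposited and -0.03 after quantile normalization. Sdha, the flavoprotein that oxidizes succinate, had 160, 142 and 132 scaled FPKM in control, 86.0, 76.9 and 75.2 in TAA and 146, 144 and 139 in recovery mice. The TAA mice were the lowest 3, and control and recovery overlapped. Its log2 fold change was -0.86 (SE 0.10, adjusted p = 0.000361) in TAA against control and 0.85 (SE 0.09, adjusted p = 0.000177) in recovery against TAA. Sdhb, the iron-sulfur subunit, had 147, 127 and 124 in control, 83.6, 72.9 and 74.7 in TAA and 119, 118 and 108 in recovery mice. Sdhd, a membrane anchor, had 139, 138 and 124 in control, 86.4, 80.0 and 72.1 in TAA and 117, 109 and 105 in recovery mice. For both, the recovery mice lay between the other groups with no overlap, with log2 fold changes against control of -0.20 (adjusted p = 0.248) and -0.28 (adjusted p = 0.11) that were not called. Sdhc, the other anchor, had 22.8, 20.9 and 15.5 in control, 17.7, 16.1 and 15.5 in TAA and 19.2, 14.6 and 19.0 in recovery mice, and was called in no comparison on the main scale. On FPKM as deposited limma called it higher in TAA against control (log2 fold change 0.39, adjusted p = 0.0284). It was called lower there in recovery against TAA (-0.47, adjusted p = 0.0108).

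All 8 members of complex III were called lower in TAA livers on the main scale, with a median of -0.73, while after quantile normalization the median was 0.04. Uqcrq, a small subunit in contact with cytochrome b (chromosome 11, 53427922 to 53430831), had 114, 117 and 118 scaled FPKM in control, 62.3, 59.5 and 55.2 in TAA and 130, 161 and 131 in recovery mice. The 3 groups did not overlap and the control mice had an SD of 2.02. It fell by 0.98 in TAA livers (SE 0.08, adjusted p = 6.42e-05) and rose by 1.25 in recovery against TAA (SE 0.11, adjusted p = 8.21e-05). Uqcrh, the acidic hinge protein at the cytochrome c site, had the largest fall of the complex, but 1 control mouse set part of it. It had 131, 72.0 and 72.4 in control, 42.3, 40.2 and 39.3 in TAA and 76.3, 86.0 and 88.0 in recovery mice, and its log2 fold change was -1.12 (SE 0.22, adjusted p = 0.00413).

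Uqcrfs1, the Rieske iron-sulfur protein, had 172, 162 and 148 scaled FPKM in control, 93.2, 87.0 and 82.2 in TAA and 141, 133 and 131 in recovery mice. Recovery mice stood between the others without overlap, at a log2 fold change of -0.25 against control that was not called (adjusted p = 0.137). The core proteins fell less in TAA livers, Uqcrc1 by 0.58 (SE 0.11, adjusted p = 0.00272) and Uqcrc2 by 0.52 (SE 0.10, adjusted p = 0.00368), on the main scale, and both had positive log2 fold changes, of 0.06 and 0.11, on FPKM as deposited. Uqcr10 fell by 0.26 (SE 0.08, adjusted p = 0.0229), the smallest called change of the complex.

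Complex IV was the only complex with members called in both directions in TAA livers on the main scale, the higher one being the low-level testis form Cox6b2. Of its 14 members tested 8 were called lower and 1 higher in TAA livers, with a median of -0.42. Cox6c, a small accessory subunit (chromosome 15, 35887204 to 35938246), had the largest fall of all members. It had 27.6, 34.1 and 21.8 scaled FPKM in control, 8.48, 6.76 and 5.43 in TAA and 21.2, 32.3 and 41.2 in recovery mice. The TAA mice were far below the others, while the recovery mice spread over the whole control range and beyond it. The log2 fold change was -2.0 (SE 0.21, adjusted p = 0.000173) in TAA against control and 2.15 (SE 0.25, adjusted p = 0.000324) in recovery against TAA. Its exons overlap those of Vps13b on the opposite strand.

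Cox4i1, the ubiquitous form of subunit 4, had 291, 223 and 218 scaled FPKM in control, 136, 136 and 135 in TAA and 222, 247 and 189 in recovery mice, so the TAA mice were alike and below all others (log2 fold change -0.84, SE 0.12, adjusted p = 0.00101). Cox5a, which contacts the catalytic core, fell by 0.46 (SE 0.10, adjusted p = 0.00604), and Cox5b, a zinc-binding subunit, had 17.0, 13.8 and 13.3 in control and 10.7, 14.3 and 12.5 in TAA mice, which overlapped. Cox7a2, the liver form of subunit 7a, fell by 1.02 (SE 0.25, adjusted p = 0.00976), with 163 in TAA 1 and 89.5 and 80.9 in the other TAA mice, beside 226, 222 and 198 in control mice. Cox7b fell by 0.85 (SE 0.13, adjusted p = 0.000995) and Cox7a2l, a factor of supercomplex assembly, by 0.50 (SE 0.13, adjusted p = 0.0134).

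The isoforms that mark other tissues stayed low. Cox6a1, the liver form, had 80.1, 90.2 and 73.0 scaled FPKM in control and 63.1, 58.3 and 64.2 in TAA mice (log2 fold change -0.39, adjusted p = 0.0134), whereas Cox6a2, the muscle form, had at most 0.0485 in control, 0.168, 0.0380 and 0.308 in TAA and 0 in recovery mice. Cox8b, another muscle form, had 0, 0.272 and 0 in control and 0.0591, 0.0258 and 0.856 in TAA mice. Cox7a1, the heart and muscle form of subunit 7a, had 1.90, 1.75 and 1.15 in control and 1.58, 2.0 and 2.63 in TAA mice. All 3 were highest in TAA 3, the mouse with the skeletal muscle transcripts. Cox6b2, the testis form of subunit 6b, was the only member called higher in TAA livers on the main scale, with 0.453, 0.574 and 0.407 in control and 0.633, 1.04 and 0.997 in TAA mice (log2 fold change 0.76, SE 0.23, adjusted p = 0.0264), but its log2 fold change was -0.05 after quantile normalization, and it was not called without TAA 2, TAA 3, control 1 or control 3 (adjusted p = 0.0584 to 0.0878 in limma). The ubiquitous Cox6b1 stood at 113, 82.4 and 77.5 in control and 98.5, 66.1 and 61.2 in TAA mice, which overlapped.

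In complex V 15 of 17 members tested were called lower in TAA livers on the main scale, with a median of -0.49, and the median turned to 0.15 on FPKM as deposited and to 0.10 after quantile normalization. All 5 subunits of the soluble F1 part were among them. Atp5a1 had 388, 364 and 336 scaled FPKM in control, 226, 202 and 208 in TAA and 347, 355 and 320 in recovery mice (log2 fold change -0.77 in TAA livers, SE 0.10, adjusted p = 0.000485). Atp5b, which carries the catalytic sites together with it, had 551, 547 and 471 in control, 408, 373 and 388 in TAA and 509, 505 and 462 in recovery mice (log2 fold change -0.42, SE 0.11, adjusted p = 0.0119). The TAA mice were the lowest 3 for both, but Atp5b depended most on the scale, with a log2 fold change of 0.22 on FPKM as deposited and 0.98 after quantile normalization. The central stalk subunits Atp5c1, Atp5d and Atp5e fell by 0.49, 0.60 and 0.73 on the main scale (adjusted p = 0.0025, 0.0193 and 0.000289).

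The rotor ring of complex V is built from identical copies of subunit c, whose mature protein is encoded by Atp5g1, Atp5g2 and Atp5g3. All 3 genes were called lower in TAA livers, with log2 fold changes of -0.52 (SE 0.09), -0.41 (SE 0.11) and -0.94 (SE 0.10) and adjusted p-values of 0.00223, 0.0172 and 0.000215. Atp5g3 had 312, 317 and 290 scaled FPKM in control, 176, 157 and 145 in TAA and 275, 303 and 274 in recovery mice. It was the most abundant of the 3 in every group. After quantile normalization the 3 log2 fold changes were 0.05, 0.05 and 0.02.

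Under all 4 scalings, 5 of the 80 members tested were called lower in TAA livers, Ndufs7, Ndufb2, Ndufb9, Uqcrq and Cox6c, and 0 were called higher, with 7.98% and 18.9% of all genes called so. The count called lower is near the share of all genes, so it does not set the members apart as a group. Of the 5, 3 belong to complex I, 1 to complex III and 1 to complex IV. Their level relative to the other members of the same library, which a scaling factor leaves as it is but quantile normalization does not, shifted too. Ndufs7 stood at 87.0% of the median member in control, 35.1% in TAA and 74.2% in recovery mice (means, n = 3), Cox6c at 45.1%, 16.6% and 46.4%, and Ndufb9 at 278%, 189% and 264%. Other members stood higher against the median member in TAA than in control livers. Atp5b stood at 852%, 946% and 729% of the median member and Cox8a, the ubiquitous subunit 8, at 206%, 341% and 366%.

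**Figure D3:**
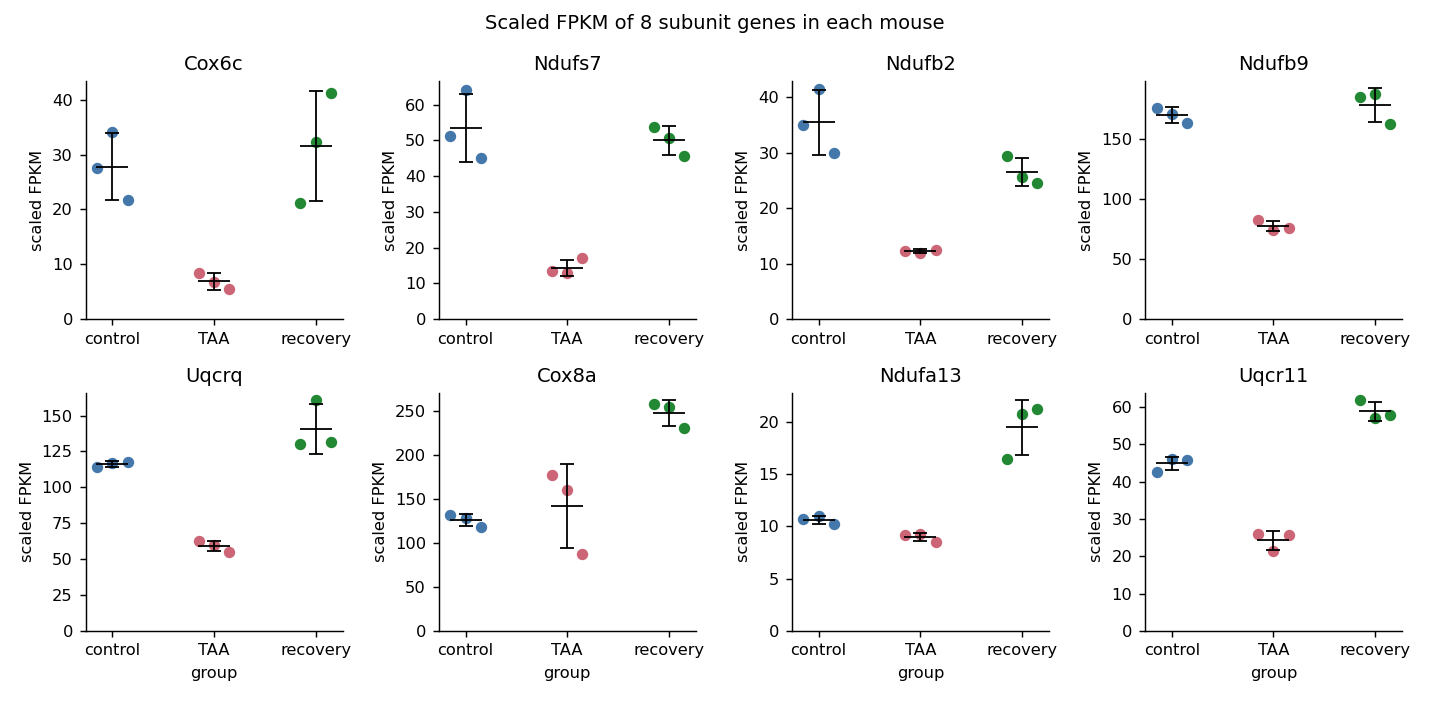
Scaled FPKM (y axis, from 0) of 8 subunit genes in each of the 3 mice of each group (x axis), with the mean and SD in black. The first 5 genes were called lower in TAA than in control livers under all 4 scalings, as were 7.98% of all genes, a share near that of the members. Their TAA mice lie below all other mice, while Cox8a, Ndufa13 and Uqcr11 lie highest in the recovery mice.

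Recovery livers were compared with TAA livers to see which subunit genes differed after the toxin was withdrawn. This comparison uses the same TAA libraries as the comparison above, so both move together with any peculiarity of these mice. On the main scale 69 members were called higher and 1 lower, with 24.5% and 26% of all genes. The median was 0.67, beside -0.01 for all genes tested and 0.31 for abundant genes, of which 48.6% were called higher. By complex the medians were 0.68, 0.53, 0.69, 0.64 and 0.68 from complex I to V. On FPKM as deposited 20 were higher and 11 lower (8.1% and 59.1% of all genes), after quantile normalization 27 and 8 (23.5% and 23%), and with the scaling over abundant genes 43 and 2 (13% and 41.5%). The medians under these scalings were 0.11, 0.14 and 0.35, but the complex II median was -0.03 on FPKM as deposited and -0.09 after quantile normalization, and that of complex V -0.02 after quantile normalization. A fold change of at least 2 was reached by 14 of the members called higher, with 7.12% of all genes, and by 0 called lower, with 14.3%. The 1 member called lower on the main scale was Cox6b2, which fell by 0.88 (SE 0.29, adjusted p = 0.0361) but was not called without TAA 2, TAA 3, recovery 1 or recovery 2, nor after quantile normalization.

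In recovery against TAA, 17 members were called higher under all 4 scalings, with 7.61% of all genes, and 0 lower. Complex I held 11 of them, complex III 3, complex IV 2, complex V 1 and complex II 0. They were Ndufa1, Ndufa2, Ndufa4, Ndufa13, Ndufb2, Ndufb3, Ndufb5, Ndufb7, Ndufb9, Ndufs7, Ndufv3, Uqcr11, Uqcrh, Uqcrq, Cox6c, Cox7b and Atp5e. Apart from Ndufs7, all are accessory or small subunits rather than carriers of a redox centre. Atp5e, the smallest subunit of F1, had 108, 107 and 104 scaled FPKM in control, 63.5, 60.6 and 69.2 in TAA and 128, 154 and 145 in recovery mice, 3 groups with no overlap, and rose by 1.14 (SE 0.10, adjusted p = 8.98e-05). Values of all 3 recovery mice were above those of all 3 TAA mice in 72 members and below them in 2, beside 29.4% and 31% of all genes.

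Few subunit genes were called between recovery and control livers. On the main scale 3 members were called higher and 0 lower, with 1.33% and 1.38% of all genes, and the same 3, Cox8a, Ndufa13 and Uqcr11, were called under all 4 scalings, as were 1.12% of all genes. The count was 12 with all 9 libraries in one fit and 1, Cox8a, with a replicate block. None of them reached a fold change of 2, which 0.589% of all genes did in the higher and 0.412% in the lower direction. With no adjustment, 19 members had p under 0.05 in the higher and 4 in the lower direction in limma, beside 11.3% and 11.7% of all genes. The median was 0.06 for the members and 0.01 for all genes. All 4 complex II members had negative log2 fold changes, with a median of -0.18, and none of these was called. Recovery mice lay above all control mice in 20 members and below them in 8, beside 14.6% and 15.6% of all genes.

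Cox8a (chromosome 19, 7215153 to 7217616) had 132, 128 and 118 scaled FPKM in control, 177, 160 and 87.5 in TAA and 257, 254 and 230 in recovery mice. Recovery mice were the highest 3, while TAA 3 stood below the control mice and the other TAA mice above them. The log2 fold change of recovery against control was 0.97 (SE 0.08, adjusted p = 0.00902). Ndufa13, a complex I subunit that is also known as Grim19 (chromosome 8, 69894180 to 69902558), had 10.7, 11 and 10.2 in control, 9.16, 9.31 and 8.55 in TAA and 16.5, 20.8 and 21.3 in recovery mice (0.86, SE 0.11, adjusted p = 0.0216), and its exons overlap those of Tssk6 on the opposite strand. Uqcr11, the smallest complex III subunit (chromosome 10, 80402997 to 80406830), had 42.7, 46.1 and 45.9 in control, 25.9, 21.3 and 25.6 in TAA and 61.9, 57.0 and 57.8 in recovery mice (0.39, SE 0.07, adjusted p = 0.0413). The groups did not overlap for either gene. Cox8a was called whichever single mouse was left out, Ndufa13 only without recovery 1, and Uqcr11 in none of these fits.

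Ndufa2, a small complex I subunit, showed the largest difference of recovery from control that was not called. It had 12.2, 23.2 and 14.5 scaled FPKM in control, 14.5, 21.9 and 14.3 in TAA and 37.2, 37.4 and 34.2 in recovery mice. The recovery mice were above all others, with a log2 fold change of 1.17 (SE 0.22, adjusted p = 0.0513) against control and of 1.13 (SE 0.16, adjusted p = 0.000916) against TAA, and its exons overlap those of Tmco6 on the opposite strand.

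Promoter windows of 250 bases before to 30 after the RefSeq start were available for 68 of the 84 member symbols (GRCm38.p6). Letters of motifs known from promoters of respiratory chain genes were searched on both strands. A gene was counted if any of its windows matched. The ETS motif CCGGAAG, the core that NRF-2 (GABP) binds, was found for 17 of the 68 members (25%), beside 9.48% of all 27025 genes with a window. The NRF-1 motif GCGCATGC was in 9 (13.2%), beside 2.92%, and the YY1 motif AAGATGGC in 4 (5.88%), beside 2.66%. The TATA box letters TATAAA, at any position in the window, were in 8 (11.8%), beside 15.1%. The windows below belong to 2 genes called lower in TAA livers under all 4 scalings and 2 called higher in recovery than in control livers, 5′ to 3′, with matches in capitals. A match describes the letters of the window and is not a binding site by itself. Ndufs7 holds TATAAA (chr10:80249199-80249478, plus strand). This match lies farther before the RefSeq start than the matches of Uqcr11 and Cox8a. The Ndufs7 window also lies wholly inside the interval given above for the gene. Whether TATAAA acts as a TATA box there was not tested. Ndufb2 holds none of the 4 motifs (chr6:39592315-39592594, plus strand), Uqcr11 the ETS motif and the reverse complement of the NRF-1 motif (chr10:80406792-80407071, minus strand) and Cox8a the reverse complement of the ETS motif (chr19:7217587-7217866, minus strand).
Ndufs7: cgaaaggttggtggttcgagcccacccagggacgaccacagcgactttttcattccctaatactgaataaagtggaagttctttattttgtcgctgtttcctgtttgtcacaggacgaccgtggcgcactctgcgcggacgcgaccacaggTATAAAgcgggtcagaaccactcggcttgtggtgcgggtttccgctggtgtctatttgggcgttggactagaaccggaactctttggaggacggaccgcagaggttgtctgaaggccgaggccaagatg
Ndufb2: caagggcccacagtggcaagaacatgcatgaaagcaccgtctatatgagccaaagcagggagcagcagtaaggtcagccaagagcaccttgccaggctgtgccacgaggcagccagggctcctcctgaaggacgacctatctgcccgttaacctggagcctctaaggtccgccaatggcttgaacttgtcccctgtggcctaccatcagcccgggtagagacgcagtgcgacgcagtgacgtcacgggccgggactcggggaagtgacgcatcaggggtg
Uqcr11: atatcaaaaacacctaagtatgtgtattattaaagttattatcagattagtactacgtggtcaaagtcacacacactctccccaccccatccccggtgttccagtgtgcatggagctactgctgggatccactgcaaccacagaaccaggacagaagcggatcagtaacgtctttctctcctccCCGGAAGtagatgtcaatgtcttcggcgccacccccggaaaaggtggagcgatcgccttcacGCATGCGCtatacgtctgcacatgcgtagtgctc
Cox8a: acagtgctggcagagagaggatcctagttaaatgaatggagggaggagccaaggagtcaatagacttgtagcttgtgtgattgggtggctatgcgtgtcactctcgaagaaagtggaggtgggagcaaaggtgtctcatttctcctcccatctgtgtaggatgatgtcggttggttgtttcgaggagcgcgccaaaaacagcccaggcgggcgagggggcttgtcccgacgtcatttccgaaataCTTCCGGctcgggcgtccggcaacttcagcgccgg

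Complexes were also compared with each other within each mouse, as the difference of the mean log2 scaled FPKM of their members, which no scaling factor alters. Complex I minus complex II was -1.47, -1.29 and -1.23 in control, -1.23, -1.18 and -1.13 in TAA and -1.06, -0.86 and -1.02 in recovery mice. The order from control over TAA to recovery had no overlap, but control 3 (-1.230) and TAA 1 (-1.226) nearly met, and complex II has only 4 members. Complex I stood highest against complex II in recovery livers. Complex I minus complex III was -1.72, -1.59 and -1.63 in control, -1.44, -1.47 and -1.44 in TAA and -1.53, -1.49 and -1.55 in recovery mice. Here the TAA mice were the highest 3 and the control mice the lowest. Complex I minus complex V overlapped between all groups, with -1.52 to -1.39 in control, -1.46 to -1.42 in TAA and -1.43 to -1.32 in recovery mice. No test was made of these differences, as members of a complex are not replicates.

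**Figure D4:**
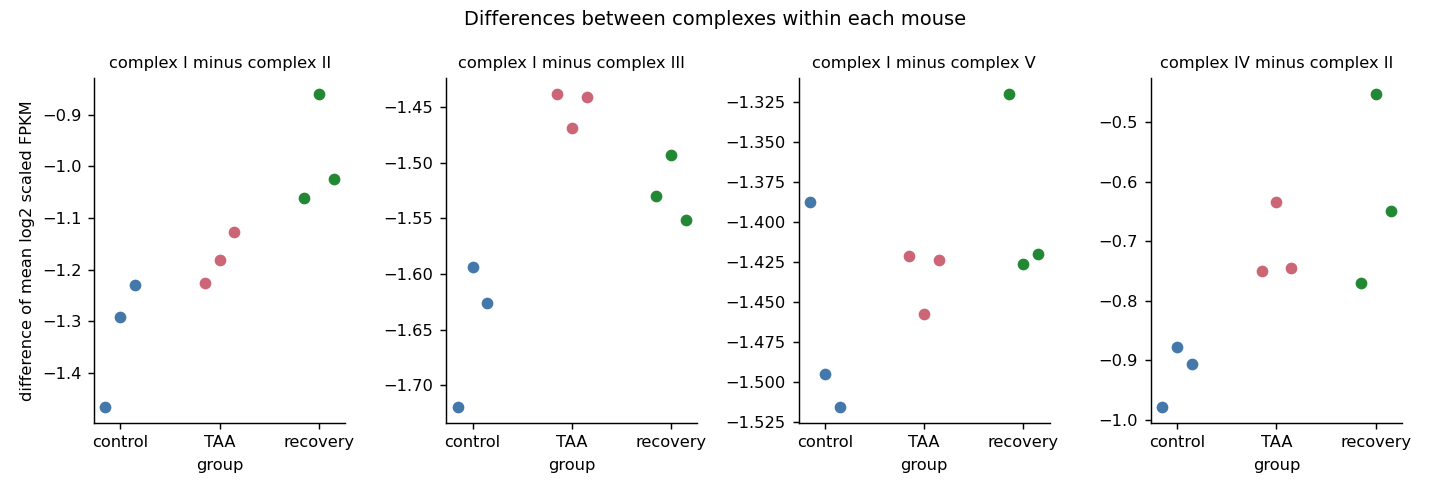
Each point is 1 mouse and shows on the y axis how much the mean log2 scaled FPKM of 1 complex exceeds that of another, by group on the x axis, and each panel has its own range. Complex I minus complex II runs from -1.47 in a control mouse to -0.86 in a recovery mouse with no overlap between groups, although control 3 and TAA 1 nearly meet. Complex I minus complex V overlaps in all groups.

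The 13 subunits encoded by the mitochondrial genome fall outside the symbol rule and are built into complexes I, III, IV and V together with the nuclear members. On the main scale 9 were called lower in TAA than in control livers and 0 higher, with a median of -0.68, beside 26.3% and 28.2% of all genes. On FPKM as deposited none was called (median -0.04), where 8.5% of all genes were lower and 62.2% higher. After quantile normalization 1 was called higher (median 0.12), beside 23.9% of all genes. In recovery against TAA 11 were called higher, with a median of 1.49, beside 24.5% of all genes. The count was 7, 3 and 10 on FPKM as deposited, after quantile normalization and with the scaling over abundant genes. The shares of all genes there were 8.1%, 23.5% and 13%, so the count after quantile normalization was near the share of all genes. The cytochrome b gene mt-Cytb had 618, 728 and 823 scaled FPKM in control, 353, 481 and 315 in TAA and 989, 1799 and 1866 in recovery mice. The complex I gene mt-Nd4 had 322, 347 and 395 in control, 206, 309 and 191 in TAA and 497, 946 and 1031 in recovery mice. For both, recovery 1 stood above the control mice and well below the other recovery mice. The log2 fold changes of both genes in TAA against control, negative on the main scale, were 0.48 and 0.52 after quantile normalization, and the table's interval for mt-Nd6 covers mt-Nd4, whose values are uncertain. None of the 13 was called against control, where the median was 0.70.

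**Figure D5:**
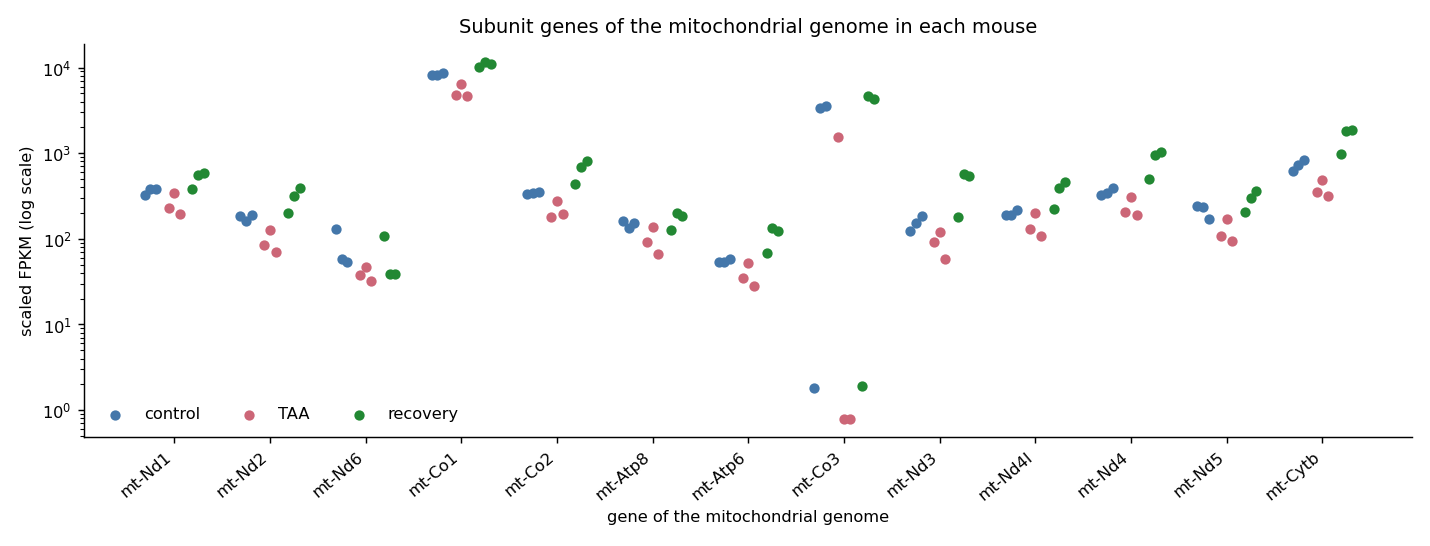
Scaled FPKM (y axis, log scale) of the 13 subunit genes of the mitochondrial genome (x axis), with 1 point per mouse. Most genes lie lowest in TAA mice on this scale and highest in recovery 2 and recovery 3, while mt-Co3 is at 0.792 to 1.91 in 4 of the 9 mice and at 1526 to 4706 in the other 5.

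Genes that work beside the subunits were followed as lists. Their counts in TAA against control are on the main scale, where 26.3% of all genes were called lower and 28.2% higher. They moved with the scale as those of the subunits did. The shares of all genes called lower and higher were 8.5% and 62.2% on FPKM as deposited and 26% and 23.9% after quantile normalization. With the scaling over abundant genes they were 13.6% and 45.3%. Of 9 further subunits and electron carriers, 5 were called lower and 1 higher in TAA livers, which became 2 and 4 on FPKM as deposited. Etfdh, which feeds electrons from fatty acid oxidation into coenzyme Q, had 221, 229 and 217 scaled FPKM in control, 54.5, 48.7 and 48.7 in TAA and 198, 212 and 189 in recovery mice (log2 fold change -2.14, SE 0.08, adjusted p = 3.62e-06), and Atpif1, the inhibitor of complex V, had 1.04, 1.25 and 1.01 in control, 5.08, 5.05 and 3.51 in TAA and 1.60, 1.71 and 1.70 in recovery mice (1.94, SE 0.18, adjusted p = 0.00011). TAA mice were the lowest 3 for the first gene and the highest 3 for the second. Of 13 tricarboxylic acid cycle genes 9 were lower and 2 higher, with a median of -0.66, which became 4 and 3 (median -0.02) on FPKM as deposited and 4 and 3 (-0.14) after quantile normalization. Fh1, fumarate hydratase, fell most among them (log2 fold change -1.18, SE 0.08, adjusted p = 2.53e-05). Of 18 glycolysis genes 3 were lower and 7 higher, with a median of 0.34, and under the other scalings 10 to 14 were higher and 1 to 2 lower. Pkm, a pyruvate kinase of other cells, rose by 2.26 (SE 0.28, adjusted p = 0.000398) and Hk2, a hexokinase, by 1.47 (SE 0.20, adjusted p = 0.000589).

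Assembly factors of each complex were counted in TAA against control. Complex IV had 10 of 20 assembly factors called lower, with a median of -0.36, complex I 5 lower and 2 higher of 15 (-0.14), complex III 3 lower and 1 higher of 6 (-0.31), complex V 3 of 4 lower (-0.35) and complex II 0 of 4 (-0.14). On FPKM as deposited all 5 medians were positive, with 1 lower and 9 higher for complex IV (0.26) and 0 lower and 9 higher for complex I (0.49). On that scale 8.5% of all genes were called lower and 62.2% higher, at a median of 0.63. Neither count called higher was above the share of all genes. Sco2, which delivers copper to complex IV, had 9.91, 12.1 and 11.4 scaled FPKM in control, 2.62, 2.73 and 2.54 in TAA and 14.2, 17.4 and 16.9 in recovery mice. The 3 groups did not overlap, and the log2 fold change was -2.04 (SE 0.11, adjusted p = 1.23e-05) in TAA against control and 2.57 (SE 0.11, adjusted p = 5.81e-06) in recovery against TAA. The complex I assembly factor Ndufaf5 went the other way, with 1.68, 1.26 and 1.48 in control, 4.22, 4.15 and 2.96 in TAA and 1.31, 1.54 and 1.51 in recovery mice.

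Of 14 regulators of mitochondrial biogenesis 10 were called lower and 1 higher in TAA livers, with a median of -0.51, but on FPKM as deposited 1 was lower and 4 higher (median 0.12) and with the scaling over abundant genes 3 and 1 (-0.15). Of all genes 8.5% were lower and 62.2% higher on FPKM as deposited, and 13.6% and 45.3% with the scaling over abundant genes. In recovery against TAA 4 were called higher, beside 24.5% of all genes. On FPKM as deposited 6 were lower and 0 higher, where 59.1% of all genes were lower and 8.1% higher. The coactivator gene Ppargc1b fell by 1.34 (SE 0.21, adjusted p = 0.0014) and Ppargc1a by 1.22 (SE 0.29, adjusted p = 0.00905). Tfam, which packages and transcribes mitochondrial DNA, had 13.3, 13.1 and 12.9 scaled FPKM in control, 9.14, 9.22 and 7.73 in TAA and 13.7, 13.2 and 12.9 in recovery mice, so only the TAA mice stood apart on this scale, and its log2 fold change in TAA against control was -0.59 on it and 0.04 on FPKM as deposited. Of 10 coenzyme Q synthesis genes 5 were lower and 1 higher, which became 0 and 6 on FPKM as deposited. Of 78 mitochondrial ribosomal protein genes 22 were lower and 3 higher, with a median of -0.15, near the 26.3% of all genes called lower. On FPKM as deposited 1 was lower and 55 higher, beside 8.5% and 62.2% of all genes. Among 6 carriers and channels tested, 3 were lower and 1 higher, but 0 were lower and 6 higher both on FPKM as deposited and after quantile normalization. Slc25a5, the main ATP/ADP carrier of these livers, fell by 0.37 on the main scale (SE 0.10, adjusted p = 0.0134) and had a log2 fold change of 0.27 on FPKM as deposited and 0.74 after quantile normalization, while Slc25a4, the heart and muscle form, had 1.34, 1.71 and 1.84 in control and 8.66, 6.24 and 9.87 in TAA mice and rose by 2.26 (SE 0.20, adjusted p = 8.2e-05). In recovery against control, 1 gene of all these lists was called, Gpd2, the mitochondrial glycerol-3-phosphate dehydrogenase, which rose by 0.73 (SE 0.13, adjusted p = 0.0496).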

How the data were processed

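The authors sequenced liver RNA of 9 mice in paired-end mode, and reads were mapped to mm10 with HISAT2 (version 2.2.1, per the submitters' processing notes) and counted on genes with featureCounts (version 1.5.0-p3), and the deposited table gives FPKM per gene and mouse. Multimapping reads and strand setting are not given in the sources used here. Small RNA libraries were not analysed here. The members and lists were chosen with earlier results of these data known.

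FPKM was scaled by median-of-ratios and tested as log2(scaled FPKM + 0.1) with limma (version 3.58.1, R 4.3.3, functions lmFit and eBayes with an intensity trend), on the 6 libraries of each comparison, over genes averaging 0.1 FPKM or more, two-sided, with Benjamini-Hochberg adjustment, since counts were not used here. The fit was tested on simulated data in which few genes changed and the TAA libraries shared 1 factor. Such data do not bear on the choice of scale in these livers. Named members were the catalytic and electron-carrying subunits, isoform groups, Ndufa4, Ndufa4l2 and the 3 largest called falls and rises per complex and comparison, and from each other list the 3 largest called changes. Members named because they were called under all 4 scalings, for their overlap with another gene, or beside these (Uqcr10, Ndufa2, Tfam and mt-Nd4) were chosen after their values were seen. Results of some genes that this rule names are not reported here. Alternatives were another pseudocount (1 and 0.01), filter, scale, fit, replicate block, a fold change of at least 2 and leaving out each mouse. Depth, estimated from the steps of low FPKM values in genes with 1 transcript, was 27.0 to 40.7 M fragments, where 58.2% to 67.5% of values were whole within 0.08 fragments and 16% would be by chance. Of the 85 loci, 75 were identical in GENCODE M21, and 31 members share exons with another annotated gene. Promoters were taken from RefSeq.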

Additional observations from a re-analysis of the deposited data

How the results depend on the processing

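In TAA against control, the 59 called lower were 8 on FPKM as deposited, 10 after quantile normalization, 26 with median-of-ratios scaling over abundant genes (10 FPKM or more on average) and 6 when a fold change of at least 2 was also asked for (8.02% of all genes), and the 1 called higher was 22, 12 and 4 under these scalings, 0 with the fold change, 0 with a filter at a mean FPKM of 1 and 2 with no filter. In recovery against TAA, the 69 called higher were 20, 27 and 43 under these scalings and 14 with the fold change (7.12% of all genes), and the 1 called lower was 11, 8 and 2, 0 with the fold change or the filter at 1, and 2 with a pseudocount of 0.01. In recovery against control, the 3 called higher were 12 with all 9 libraries in one fit, 7 with that filter, 7 on FPKM as deposited, 5 after quantile normalization, 1 with no filter, and 0 with the fold change, and 0 were called lower under every setting run. Leaving out 1 mouse at a time gave 52 to 59 lower and 0 to 1 higher in TAA against control, 58 to 70 higher and 0 to 1 lower in recovery against TAA, and 1 to 2 higher and 0 lower in recovery against control, and no called member changed sign. Only the number is shared by mice of equal replicate number. Over the 14094 genes tested, their deviations from the group means correlated at -0.07 to 0.12, beside -0.11 to 0.13 for mice of unequal number. With a replicate block, 59 members were lower and 1 higher, 68 higher and 1 lower, and 1 higher and 0 lower in the 3 comparisons.

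Scaling also turned signs, and the cause was not tested. Of the 80 members tested, 44 had another sign than on the main scale in TAA against control and 22 in recovery against TAA on FPKM as deposited, 36 and 27 after quantile normalization, and 15 and 9 with the scaling over abundant genes. Values are given below for the complex medians and for the members that the naming rule covers and that were called on either scale, not for all members. On FPKM as deposited, the values opposite in sign in TAA against control were 0.20 for complex I, 0.21 for complex IV, 0.15 for complex V, 0.22 for Atp5b, 0.15 for Atp5c1, 0.041 for Atp5d, 0.11 for Atp5g1, 0.22 for Atp5g2, 0.18 for Atp5j, 0.18 for Cox5a, 0.40 for Cox5b, 0.25 for Cox6a1, 0.14 for Cox7a2l, 0.39 for Ndufa13, 0.18 for Ndufs1, 0.39 for Sdhc, 0.061 for Uqcrc1 and 0.11 for Uqcrc2. On FPKM as deposited, the values opposite in sign in recovery against TAA were -0.032 for complex II, -0.22 for Atp5b, -0.19 for Atp5c1, -0.076 for Atp5g2, -0.14 for Cox5a, -0.11 for Cox6a1, -0.28 for Ndufs1, -0.47 for Sdhc, -0.085 for Sdhd and -0.23 for Uqcrc2. After quantile normalization, the values opposite in sign in TAA against control were 0.038 for complex III, 0.098 for complex V, 0.38 for Atp5a1, 0.98 for Atp5b, 0.19 for Atp5c1, 0.15 for Atp5d, 0.049 for Atp5g1, 0.052 for Atp5g2, 0.017 for Atp5g3, 0.024 for Atp5h, 0.020 for Atp5j, 0.32 for Cox5a, 0.23 for Cox6a1, -0.049 for Cox6b2, 0.016 for Cox7a2l, 0.066 for Ndufs1, 0.17 for Uqcrc1 and 0.19 for Uqcrc2. After quantile normalization, the values opposite in sign in recovery against TAA were -0.092 for complex II, -0.018 for complex V, -0.36 for Atp5a1, -0.96 for Atp5b, -0.23 for Atp5c1, -0.088 for Atp5d, -0.018 for Atp5g3, -0.013 for Cox4i1, -0.28 for Cox5a, -0.13 for Cox6a1, -0.18 for Ndufs1, -0.045 for Sdhb, -0.15 for Sdhd, -0.015 for Uqcrc1, -0.30 for Uqcrc2 and -0.065 for Uqcrfs1. With the scaling over abundant genes, the values opposite in sign in TAA against control were 0.12 for Ndufa13. With the scaling over abundant genes, the values opposite in sign in recovery against TAA were -0.033 for Ndufs1. Depth of 27.0 to 40.7 M fragments per library, estimated from the steps of low FPKM values, limits the precision of members near 0.1 FPKM, and those averaging less were left untested by the filter.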

Other observations

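In 12 cases 1 mouse stood more than 1.5-fold from both others of its group, which lay within 1.5-fold of each other. This was judged on FPKM as deposited, where all 3 mice of the group had at least 1 FPKM. The values below are scaled FPKM, on which the fold can differ. Recovery 1 was high for Ndufa12, a complex I accessory subunit, with 17.0 scaled FPKM beside 6.14 and 6.63, and low for Atp5j, a stalk subunit of complex V, with 50.3 beside 86.3 and 103, for Cox6c, with 21.2 beside 32.3 and 41.2, and for Ndufa5, with 10.8 beside 17.0 and 17.9. TAA 1 was high for Cox7a2, with 163 beside 80.9 and 89.5, and for Ndufc1, with 22.5 beside 11.9 and 13.0. TAA 2 was low for Ndufb10, with 15.7 beside 25.2 and 32.0, and for Ndufa3, with 9.54 beside 15 and 17.7, and TAA 3 was low for Cox8a, with 87.5 beside 160 and 177. Among control mice, control 1 was high for Uqcrh, with 131 beside 72.0 and 72.4, control 2 for Ndufa2, with 23.2 beside 12.2 and 14.5, and control 3 for Ndufs8, with 27.4 beside 17.8 and 18.9. These genes were chosen after their values were seen.

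The mitochondrial gene mt-Co3 had 1.8, 3378 and 3540 scaled FPKM in control, 1526, 0.792 and 0.793 in TAA and 1.91, 4706 and 4273 in recovery mice. The table gives mt-Co1 the interval 5328 to 9390 of the mitochondrial genome, which holds that of mt-Co3 (8607 to 9390), where GENCODE M21 gives mt-Co1 5328 to 6872, and mt-Nd6 the interval 5018 to 14139, where M21 gives 13552 to 14070. The interval of mt-Nd6 also covers mt-Co2, mt-Atp8, mt-Atp6, mt-Nd3, mt-Nd4l, mt-Nd4 and mt-Nd5, and reads of all these genes may be shared, while mt-Nd1, mt-Nd2 and mt-Cytb lie outside both intervals.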
